A study of Mus musculus with 29 samples.

Results

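Peaks of tagged transcription factors were found inside protein-coding exons away from promoters at 2836 sites, out of 168506 sites in all (1.68%). To define them, the duplicate lists of a construct were merged, touching peaks of all 24 constructs were joined into sites, and sites with peaks of 1 to 4 constructs were kept (159066 sites). Those with a midpoint more than 1 kb from every start of a protein-coding transcript numbered 142320. The midpoint of 2836 of these lay in a coding exon, that is, in sequence translated into protein, and these are called coding-exon sites. The other 139484 are called non-coding distal sites. They comprised 58979 in introns of protein-coding genes, 6107 in other exons and 74398 outside protein-coding genes. The sites were thus chosen by the number of constructs with a peak there and by position, so both are given here as descriptions. At the edges of the choice, 26 coding-exon sites held exactly 4 constructs, against 24 sites of the same kind with 5, and 48 lay in the first 100 bp beyond 1 kb from a start, against 47 coding sites in the last 100 bp before it. Starts of other transcripts were not excluded, and 2384 coding-exon sites lay more than 1 kb from every annotated transcript start.

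The study asked how transcription factors that differ in their binding to mitotic chromosomes occupy the genome in interphase. Each of the 24 constructs was expressed in NIH-3T3 cells, an immortalised line of mouse embryonic fibroblasts, from a lentiviral transgene that 500 ng/ml doxycycline switched on overnight, and was precipitated through its HA tag (ChIP-seq). The constructs were 21 wild-type factors, 2 mutants of FOXA1 (FOXA1_RR-HA and FOXA1_SW-HA) with reduced nonspecific binding to DNA, and OCT4-HA made in the same cells as SOX2 joined to YPet, a fluorescent protein (SOX2-YPET OCT4-HA, the co-expression list). All cells carried the doxycycline-responsive activator, and all were treated with doxycycline. The peaks show where an introduced construct was found in fibroblasts, and not where the factor acts in its own tissue. There were 2 peak lists for SOX2-HA, BHLHB8-HA, OCT4-HA and FOXA1-HA, and 1 for each of the other 20 constructs, which gives those 20 no replicate error. The study calls the duplicates biological replicates, while the labels only number them. The lists give positions only, so sequencing depth and peak height are unknown.

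Most binding sites of transcription factors lie in promoters, introns and the sequence between genes. A coding exon must keep its reading frame, yet the same letters can also form a sequence that a DNA-binding protein recognises, and exons are on average richer in G and C than the introns around them. Short DNA sequences known to be bound by each factor, its consensus, make it possible to ask which peaks in exons hold such a sequence.

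To show what such sites look like, sites with the consensus of the precipitated factor were taken. For each construct with at least 20 coding-exon sites, the widest site held by it alone with its consensus in the central 200 bp was taken. The central 200 bp of 7 of them are printed below from the forward strand of GRCm38. Matches to the consensus of the precipitated factor are in capitals, and sequences of other factors are not marked where they occur. A window can run past the exon into sequence that is not translated.
DUXBL-HA in coding exon 4 of 4 of Zfp808, chr13:62172535-62172734: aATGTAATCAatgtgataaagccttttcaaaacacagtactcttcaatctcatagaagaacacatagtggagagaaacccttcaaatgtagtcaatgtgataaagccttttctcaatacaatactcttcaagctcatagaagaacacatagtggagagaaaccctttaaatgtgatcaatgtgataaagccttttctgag
BHLHB8-HA in coding exon 3 of 3 of Zfp853, chr5:143288944-143289143: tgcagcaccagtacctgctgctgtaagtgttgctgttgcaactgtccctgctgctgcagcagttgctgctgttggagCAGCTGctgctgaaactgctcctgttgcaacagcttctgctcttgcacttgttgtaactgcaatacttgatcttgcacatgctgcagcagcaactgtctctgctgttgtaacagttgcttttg
EBF1-HA in coding exon 12 of 13 of Pou2f3, chr9:43127283-43127482: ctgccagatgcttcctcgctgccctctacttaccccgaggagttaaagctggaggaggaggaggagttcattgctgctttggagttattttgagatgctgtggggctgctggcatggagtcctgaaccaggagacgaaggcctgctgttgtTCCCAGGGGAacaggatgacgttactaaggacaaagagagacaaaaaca
CDX2-HA in coding exon 17 of 61 of Vps13b, chr15:35533272-35533471: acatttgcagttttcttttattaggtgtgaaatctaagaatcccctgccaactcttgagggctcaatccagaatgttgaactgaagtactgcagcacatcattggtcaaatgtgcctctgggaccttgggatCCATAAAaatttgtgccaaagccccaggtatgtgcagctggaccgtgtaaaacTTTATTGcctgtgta
SOX2-HA in coding exon 1 of 1 of Zfp770, chr2:114196587-114196786: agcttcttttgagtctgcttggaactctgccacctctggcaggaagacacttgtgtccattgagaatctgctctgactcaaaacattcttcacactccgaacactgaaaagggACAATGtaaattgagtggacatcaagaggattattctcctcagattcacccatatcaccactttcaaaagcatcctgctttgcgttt
SIX6-HA in coding exon 2 of 78 of Muc16, chr9:18654913-18655112: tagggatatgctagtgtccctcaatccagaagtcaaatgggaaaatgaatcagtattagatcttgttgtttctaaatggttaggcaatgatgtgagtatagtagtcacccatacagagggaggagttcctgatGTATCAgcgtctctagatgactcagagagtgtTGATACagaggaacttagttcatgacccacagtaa
TEAD1-HA in coding exon 8 of 8 of Fam171a2, chr11:102437922-102438121: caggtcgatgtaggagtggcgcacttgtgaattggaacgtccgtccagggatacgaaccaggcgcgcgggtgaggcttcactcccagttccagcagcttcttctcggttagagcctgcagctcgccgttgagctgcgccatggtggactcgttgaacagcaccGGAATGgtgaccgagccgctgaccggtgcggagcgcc

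The widths of these 7 peaks ran from 277 bp in Muc16, a membrane mucin, to 1363 bp in Fam171a2. The windows in Zfp808, Zfp853, Zfp770 and Muc16 belong to peaks that lie wholly in coding sequence. The peak in Vps13b, which encodes a lipid transfer protein of the Golgi, is 21.6% coding, and that in Pou2f3, the gene of a POU-domain factor, is 23.2% coding. The first CDX2-HA match in Vps13b lies in coding sequence, the second lies in the intron beyond the exon, and the matches in the other 6 windows lie wholly in coding sequence. Among the sites chosen but not printed, the DLX1-HA match in Tars2 and the DLX6-HA match in Slc2a13 lie wholly outside coding sequence. The DUXBL-HA match in Zfp808 lies in repeated sequence that encodes zinc fingers, and the stretch after the match recurs further along in the same window. The BHLHB8-HA match in Zfp853 is set among CTG triplets of the printed strand. The TEAD1-HA window has 62.5% G and C, the highest value of the 7.

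Before the sites are compared, the lists that supplied them must be told apart, since 3 of them stood away from the rest. BHLHB8-HA replicate 2 held 1941 of the 2836 coding-exon sites (68.4%), and 1573 sites, or 55.5% of all 2836, were in that list alone. TEAD1-HA held 389 and the co-expression list held 151. Together these 3 lists touched 2396 sites (84.5%), and 2076 (73.2%) were in no other list. The other 25 lists held 760 sites (26.8%). The shortest peak was 264 bp in TEAD1-HA and 253 bp in the co-expression list, the highest values of all lists. It was 230 bp in BHLHB8-HA replicate 2, the same as in THAP4-HA, and 143 bp in BHLHB8-HA replicate 1. Their part in the results below was not tested beyond leaving them out. Without BHLHB8-HA replicate 2 there were 1287 coding-exon sites, and without all 3 lists there were 781.

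Coding-exon sites made up 1.99% of the distal sites of 1 to 4 constructs, and the share differed widely between lists. Coding sequence makes up 1.14% of the known bases of the genome more than 1 kb from a start, or 29.4 of 2583 Mb. TEAD1, the DNA-binding partner of the coactivator YAP, had the highest share among lists with at least 100 distal sites, 4.87% (389 of 7995 sites, 95% exact interval 4.40 to 5.36). TOX3-HA, an HMG-box factor, followed with 4.27%, from only 7 of 164 sites (interval 1.73 to 8.60). Of these 7, 3 lie in Tox3 itself, where fragments of the transgene cannot be told apart from the gene. Its interval without those 3 was not computed. BHLHB8-HA replicate 2 had 4.20% (1941 of 46173 sites, interval 4.02 to 4.39) and the co-expression list 3.27% (151 of 4616, interval 2.78 to 3.83). These 4 lists and BHLHB8-HA replicate 1, with 1.33% (401 of 30069, interval 1.21 to 1.47), were the 5 lists with a whole interval above the share of the genome. FOXA1-HA replicate 2 reached 2.61% from 8 of 306 sites, and its interval of 1.14 to 5.09 still held that share at its lower end. The intervals here cover counting error over sites and not the error between libraries.

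At the other end, 7 lists had a whole interval below the coding share of the genome. ZFP319, a zinc-finger protein, had the lowest share of a long list, 0.175% (21 of 12026 sites, interval 0.108 to 0.267). CDX2, the caudal homeodomain factor of the gut, had 0.335% (74 of 22086), DLX6-HA had 0.401% (44 of 10983) and DUXBL, a double-homeodomain factor, had 0.629% (128 of 20357). SOX2, an HMG-box factor of pluripotent and neural cells, was low in both lists, with 0.469% (74 of 15773) in replicate 1 and 0.403% (10 of 2479) in replicate 2. The seventh list was FOXA1-HA replicate 1, with 0.544% (13 of 2391). The interval of 15 lists held the genome share, and OCT4-HA replicate 2 had no distal site of 1 to 4 constructs. The 2 duplicates of SOX2-HA thus lay close together, whereas the duplicates of FOXA1-HA and of BHLHB8-HA lay far apart in this share. Leaving out BHLHB8-HA replicate 2 took the share of all sites from 1.99% to 1.13%, and leaving out the 3 lists that stood apart took it to 0.765%, below the share of the genome.

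**Figure D1:**
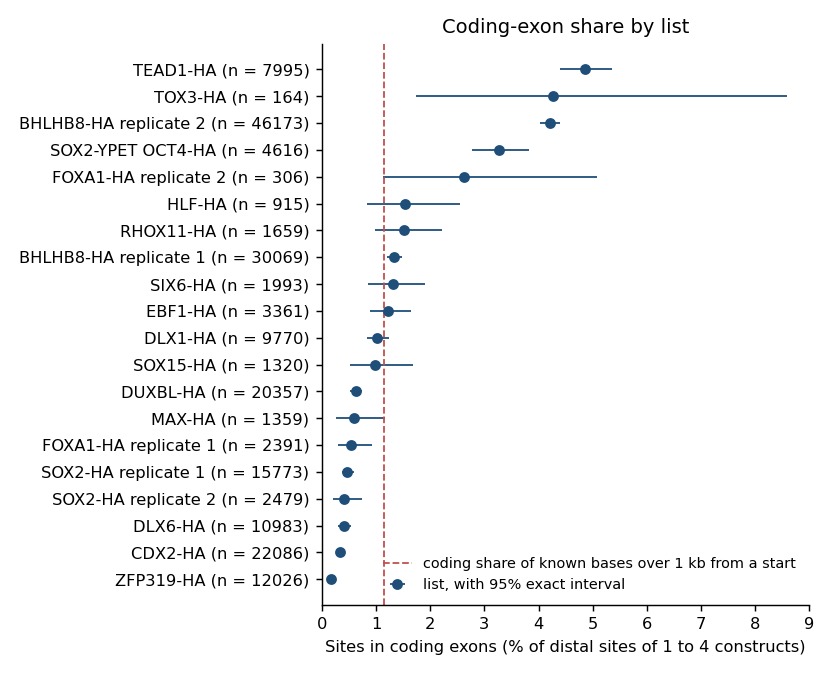
Percent of a list's distal sites of 1 to 4 constructs that lie in coding exons, for the 20 lists with at least 100 such sites. Points are lists with 95% exact intervals, n is the number of distal sites, and the dashed line is the coding share of the genome over 1 kb from a start, 1.14%. TEAD1-HA at 4.87% and BHLHB8-HA replicate 2 at 4.20% lie right of the line and ZFP319-HA at 0.175% is farthest to its left.

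BHLHB8, also called MIST1, is a basic helix-loop-helix factor of secretory cells that recognises the E-box CAGCTG, and its 2 lists differed in their share of coding-exon sites. Sites found in both lists were coding in 273 of 13184 cases (2.07%, interval 1.83 to 2.33). Sites of replicate 1 alone were coding in 128 of 16885 cases (0.758%, interval 0.633 to 0.901), and sites of replicate 2 alone in 1668 of 32989 (5.06%, interval 4.82 to 5.30). Read from replicate 1, 68.1% of its 401 coding-exon sites were also in replicate 2 (interval 63.3 to 72.6), against 43.5% of its non-coding distal sites. Read from replicate 2, 14.1% of its 1941 coding-exon sites were also in replicate 1 (interval 12.5 to 15.7), against 29.2% of its non-coding distal sites. The direction of the difference thus depends on the list from which it is read.

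Over the merged sites of BHLHB8-HA, 273 of 2069 coding-exon sites (13.2%) were in both lists, against 21.2% of its non-coding distal sites and 29.1% of all its sites. For SOX2-HA the numbers were 8 of 76 coding-exon sites (10.5%, interval 4.66 to 19.7), 13.4% of non-coding distal sites and 21% of all sites. For FOXA1-HA they were 2 of 19 (10.5%, interval 1.30 to 33.1), 6.83% and 13.7%. OCT4-HA had no coding-exon site, and 24.1% of all its sites were in both lists. The share found in both lists among coding-exon sites was below the share over all sites in the 3 constructs that had any. Non-coding distal sites were below it in these 3 constructs too. The share over all sites also counts promoter sites and sites of more constructs, so that shortfall is not particular to coding exons. Against non-coding distal sites, the coding-exon share was lower in BHLHB8-HA and SOX2-HA and higher in FOXA1-HA. For SOX2-HA and FOXA1-HA the interval is too wide to tell coding-exon from non-coding distal sites.

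Coding-exon sites carried the E-box in similar shares whichever BHLHB8-HA list held them. In the central 200 bp it was present in 51.3% of the 273 sites found in both (interval 45.2 to 57.4), in 46.9% of the sites of replicate 1 alone (38.0 to 55.9) and in 45.3% of the sites of replicate 2 alone (42.9 to 47.7). The same windows of non-coding distal sites had 44.0%, 36.0% and 34.5%. Windows of 200 bp at the middle of all 168696 coding exons more than 1 kb from a start held it in 15.1%. In each class the E-box was therefore more frequent in coding-exon sites than in the other distal sites of the class, and about 3 times as frequent as in coding exons at large. The first difference was not particular to BHLHB8-HA. TEAD1-HA had the E-box in 24.9% against 4.98% and EBF1-HA in 36.6% against 22.7%. Among constructs with at least 20 coding-exon sites only DUXBL-HA went the other way (7.81% against 7.84%). These constructs are not all separate examples, since 26 of the 41 coding-exon sites of EBF1-HA (63.4%) also had a BHLHB8-HA peak. In TEAD1-HA the 2 classes differed in base composition, with a mean GC content of 71.4% against 45.0%. The 1668 coding-exon sites that only replicate 2 held had a mean GC content of 55.1%, close to the 56.6% of those found in both.

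**Figure D2:**
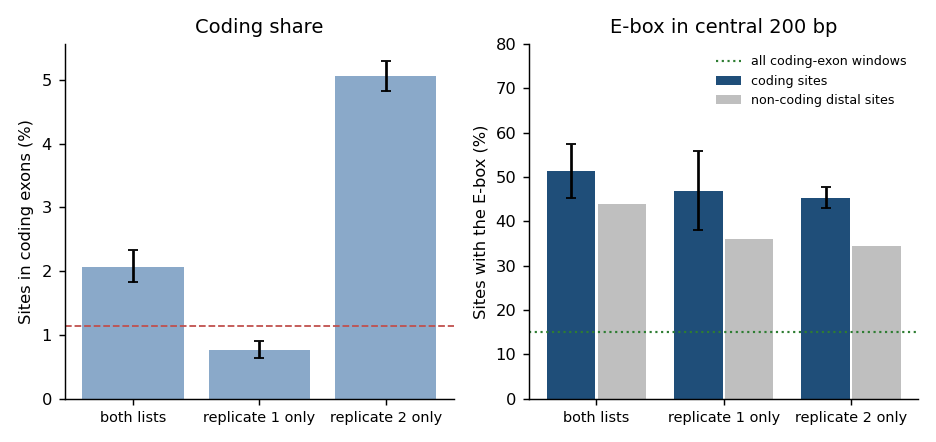
BHLHB8-HA sites by the list that held them. Left, percent of distal sites of 1 to 4 constructs in coding exons with 95% exact intervals, with the genome share of 1.14% dashed; right, percent with the E-box in the central 200 bp for coding-exon sites (dark, 95% exact intervals) and non-coding distal sites (grey), with all coding-exon windows (15.1%) dotted. The coding share ranges from 0.758% to 5.06% while the E-box share of coding-exon sites stays between 45.3% and 51.3%.

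Each other consensus was compared in the same way over the 10 constructs that had one listed and at least 20 coding-exon sites. The question was whether peaks in coding exons carry the factor's own sequence as often as its peaks elsewhere. The consensus was in 48.4% of the 128 coding-exon sites of DUXBL-HA (interval 39.5 to 57.4), against 36.5% of its non-coding distal sites and 2.26% of coding-exon windows. BHLHB8-HA had 46.2%, 36.9% and 15.1%. EBF1, a factor of B lymphocyte development, had 36.6%, 32.6% and 3.02%. CDX2-HA had 33.8%, 46.0% and 4.38%, SOX2-HA had 26.3%, 27.5% and 11.1%, and SIX6, a homeodomain factor of the eye, had 23.1%, 13.1% and 5.42%. The value was above that of coding-exon windows in each of these 6 constructs.

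The consensus was less frequent in the other 4. DLX6-HA and DLX1-HA, homeodomain factors of forebrain interneurons, had TAATTA in 6.82% and 6.00% of their coding-exon sites, against 3.08% of coding-exon windows and 13.8% and 11.3% of their non-coding distal sites. TEAD1-HA had its sequence GGAATG in 6 of 389 coding-exon sites (1.54%, interval 0.568 to 3.33), against 5.56% of its non-coding distal sites and 10.4% of coding-exon windows. The co-expression list had an octamer in 1 of 151 (0.662%, interval 0.0168 to 3.63), against 1.14% and 1.03%. In neither of these last lists was the sequence more frequent in coding-exon sites than in coding-exon windows.

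Over the 10 constructs the consensus was 17.1 percentage points more frequent in coding-exon sites than in coding-exon windows, with an SD of 17.7 and a higher value in 8 of 10. The exact two-sided permutation test over sign changes gave p = 0.0195, and p = 0.0467 after Benjamini-Hochberg adjustment over 7 tests. That adjusted p passed 0.05 narrowly and rose above it without FOXA1-HA replicate 1 (0.0535), SOX2-HA replicate 1 (0.0638) or SOX2-HA replicate 2 (0.0513), and under 6 other choices of sites or constructs. It was 0.0205 without the 3 lists that stood apart, where the difference was 20.6 points. Between coding-exon and non-coding distal sites the mean difference was 0.51 points, with an SD of 8.07 and a range from -12.2 to 11.95. It was not distinguishable from 0 (exact permutation p = 0.840, adjusted p = 0.840, higher in 4 of 10). Constructs share some of their sites, so they are not fully independent.

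**Figure D3:**
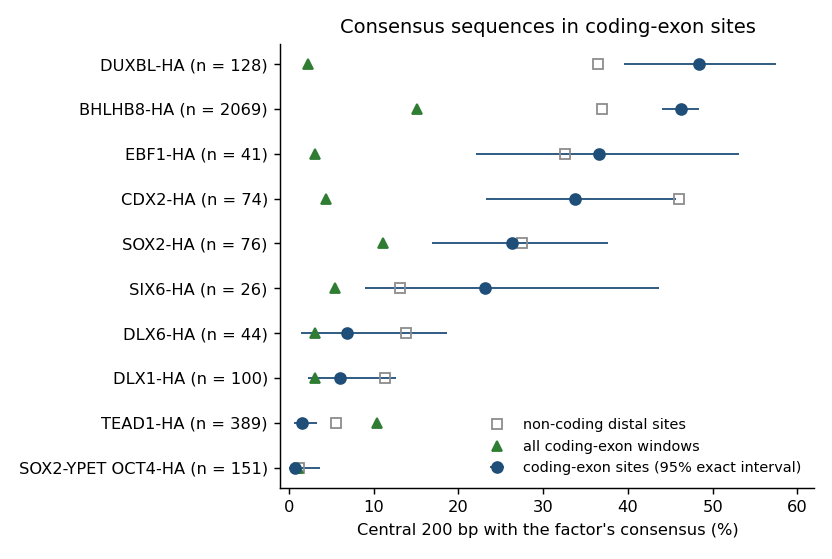
Percent of central 200 bp windows that hold the factor's consensus, for the 10 constructs with a listed consensus and at least 20 coding-exon sites. Filled points are coding-exon sites with 95% exact intervals, squares are the construct's non-coding distal sites, triangles are windows at all coding exons over 1 kb from a start, and n is the number of coding-exon sites. DUXBL-HA (48.4%) and BHLHB8-HA (46.2%) lie far right of their triangles, whereas TEAD1-HA (1.54%) lies left of its own.

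AP-1, the dimer of FOS and JUN proteins that marks open chromatin in fibroblasts, binds TGACTCA, and this sequence was counted in every construct as a sign shared by many open sites. It was present in 2.69% of coding-exon windows. Coding-exon sites of DLX6-HA had it in 25%, those of SOX2-HA in 23.7%, EBF1-HA in 17.1%, SIX6-HA in 15.4%, CDX2-HA in 12.2% and DLX1-HA in 12%. DUXBL-HA had 9.38%, ZFP319-HA 9.52%, BHLHB8-HA 4.49% and RHOX11-HA 4.00%. The co-expression list had 2.65% and TEAD1-HA had 0.257%, or 1 of 389 sites. Over 12 constructs the share was 8.61 points above that of coding-exon windows (SD 7.95, higher in 10 of 12, exact two-sided permutation p = 0.00391, adjusted p = 0.0273). That call was lost with sites that are mostly coding (at least 50% of the bases), where the difference was 3.91 points (adjusted p = 0.130 by the exact permutation test). It was also lost for sites of 1 construct (6.14, adjusted exact p = 0.547), with peaks of at least 300 bp (12.2, 0.0547) and in constructs with at least 50 coding-exon sites (6.54, 0.328). The mean difference from non-coding distal sites was -1.72 points, which was not distinguishable from 0 (SD 5.03, lower in 8 of 12, exact permutation p = 0.280, adjusted p = 0.392). This result depended on the choice of sites. The difference passed the test at -5.40 points for sites of 1 to 9 constructs (adjusted exact p = 0.00854), at -3.75 beyond 1 kb from every transcript start (0.0342) and at -5.63 with mostly coding sites (0.0410). BHLHB8-HA and DLX1-HA showed the lower value most clearly, with 4.49% against 9.61% and 12% against 26.5%. They are not separate observations, since 87 of the 100 coding-exon sites of DLX1-HA also had a BHLHB8-HA peak.

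Coding-exon sites of TEAD1-HA had the highest content of G and C among the 12 constructs with at least 20 such sites. Their central 200 bp had a mean GC content of 71.4%, against 45.0% in the construct's non-coding distal sites and 48.8% in coding-exon windows. CpG dinucleotides, which are depleted from most of the mouse genome, numbered 23.0 per 200 bp, against 5.91 in its non-coding distal sites, 4.18 in coding-exon windows and 5.12 in the 2447 coding-exon sites without a TEAD1-HA peak. The other 11 constructs ranged from 38.9% GC and 2.22 CpG in CDX2-HA to 56.5% GC in EBF1-HA and 6.62 CpG in DLX1-HA. In all 12 constructs the mean GC content was higher in coding-exon than in non-coding distal sites. Against coding-exon windows the mean difference over constructs was 2.82 points, which was not distinguishable from 0 (SD 7.95, higher in 7 of 12, exact permutation p = 0.263, adjusted p = 0.392).

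The TEAD1-HA sites were also the ones most often in last coding exons. Of 389 sites, 380 could be placed in an exon of a representative transcript, the one with the longest coding sequence of its gene. The last coding exon held 217 of them (57.1%, interval 52.0 to 62.1), whereas 21.5% of coding bases more than 1 kb from a start lie in last coding exons. The median exon was 688.5 bp long, the median site was 99.5% coding, and 213 sites (54.8%) lay within 5 kb of a start. Of all TEAD1-HA sites, 45.2% lay within 1 kb of a start and so outside the part. That was the highest value of all lists, beside 45.1% in RHOX11-HA. For BHLHB8-HA the exon was 236 bp long in the median, 26.1% of sites were in the last coding exon and 25.2% lay within 5 kb of a start. TEAD1-HA peaks were also wider in coding exons, with a median of 418 bp against 299 bp at non-coding distal sites. Over 12 constructs this width difference was 9.29 bp with an SD of 39.2 (higher in 7 of 12), which was not distinguishable from 0 (exact permutation p = 0.549, adjusted p = 0.641). TEAD1-HA held 3 of the 4 sites of Speg, a kinase of striated muscle, all in exons of 1307 or 1969 bp. A single list of TEAD1-HA was analysed, so none of this has a replicate check.

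Over all constructs, coding-exon sites lay in the last coding exon more often than coding bases do. The 2783 sites that could be placed comprised 828 in last coding exons (29.8% against 21.5% of coding bases) and 314 in first coding exons (11.3% against 8.58%). Within constructs the excess in last coding exons was 8.44 points on average (SD 11.4, higher in 10 of 12, exact two-sided permutation p = 0.0200, adjusted p = 0.0467). The adjusted p was 0.0456 without the 3 lists that stood apart, where the excess was 6.80 points. It rose above 0.05 without BHLHB8-HA replicate 1 (0.0581), FOXA1-HA replicate 1 (0.0535), SOX2-HA replicate 1 (0.0638) or SOX2-HA replicate 2 (0.0513), and under 6 other choices of sites or constructs. Besides TEAD1-HA, the share was high in SIX6-HA (38.5%), the co-expression list (36.7%), DUXBL-HA (36.5%) and RHOX11-HA (36.0%), and it was below that of coding bases in CDX2-HA (16.2%) and SOX2-HA (20.3%).

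**Figure D4:**
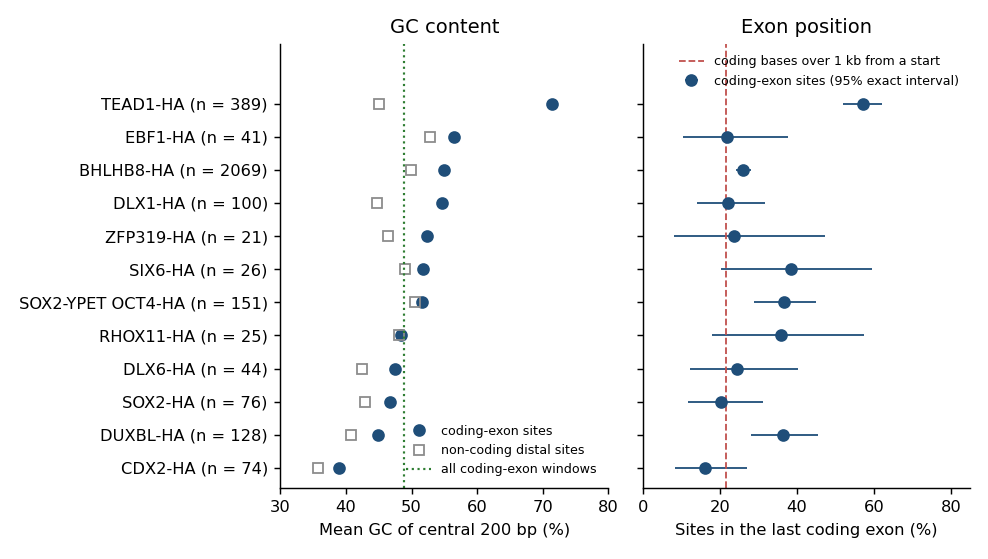
Composition and exon position of coding-exon sites in the 12 constructs with at least 20 of them, ordered by GC content, with n the number of sites. Left, mean GC percent of the central 200 bp in coding-exon sites (points) and non-coding distal sites (squares), with coding-exon windows (48.8%) dotted; right, percent in the last coding exon with 95% exact intervals, with coding bases (21.5%) dashed. TEAD1-HA is farthest right in both panels, at 71.4% and 57.1%.

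Pooled over constructs, the exons that held sites were long. Their median length was 261 bp (quartiles 159 and 789.5 bp), against 180 bp (126 and 508 bp) when every coding base more than 1 kb from a start is counted once. Exons of up to 200 bp held 39.0% of sites and 56.3% of coding bases, and exons longer than 1000 bp held 19.6% and 15.8%. By construct the median exon was 688.5 bp in TEAD1-HA, 489 bp in the co-expression list, 315 bp in SIX6-HA and 236 bp in BHLHB8-HA. It was 209 bp in RHOX11-HA, 192 bp in DLX1-HA and 180.5 bp in DUXBL-HA. In DLX6-HA, EBF1-HA, SOX2-HA, ZFP319-HA and CDX2-HA it was 169, 166, 164.5, 151 and 134 bp, below the 180 bp of coding bases. The median site was 328 bp wide and 70.5% coding, 840 sites (29.6%) lay wholly in coding sequence and 153 (5.39%) touched 2 or more coding exons. Placement by midpoint therefore also takes in peaks that extend into introns. The median distance to the nearest start was 10816 bp, against 37456 bp for non-coding distal sites.

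Most coding-exon sites were held by a single construct: 2576 (90.8%), against 83.3% of non-coding distal sites. Of the 2576, 1573 were in BHLHB8-HA replicate 2 and in no other list. The share was not computed without that list for either class, so the contrast cannot be told apart from its contribution. Among constructs with at least 20 coding-exon sites, the share held by that construct only ran from 9% in DLX1-HA to 90.6% in DUXBL-HA. Peaks of 2 constructs were at 174 sites, of 3 at 60 and of 4 at 26. The most frequent pair was BHLHB8-HA and DLX1-HA with 87 sites, which is 87% of the coding-exon sites of DLX1-HA and 4.20% of those of BHLHB8-HA. Both BHLHB8-HA lists held them alike, with 79 in replicate 1 and 78 in replicate 2, and the E-box was in 48% of the coding-exon sites of DLX1-HA. At non-coding distal sites of DLX1-HA the shares were 56.2% for replicate 1 and 43.6% for replicate 2, and 25.4% had the E-box. The co-expression list shared 47 of its 151 coding-exon sites (31.1%) with BHLHB8-HA replicate 2 and 4 (2.65%) with replicate 1. Its non-coding distal sites showed the same imbalance, with 27.5% and 2.24%, and 15.9% of its coding-exon sites had the E-box, against 15.1% of coding-exon windows.

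The sites fell in 2454 genes, or 12.5% of the 19582 genes with coding sequence more than 1 kb from a start. Of these genes 2130 had 1 site, 270 had 2, 42 had 3, 8 had 4 and the top 4 had 5 to 8. Apart from sites that BHLHB8-HA replicate 2 alone held, 1189 genes had a site. Genes with a site had a median of 1.78 kb of such coding sequence, against 1.07 kb for all. The 12 genes with the most sites were Ttn, Akap9, Macf1, 9330182L06Rik, Dnah17, Myh9, Pappa, Reln, Speg, Syne2, Tnrc6b and Vps13b.

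Ttn, which encodes the giant sarcomere protein titin, had 8 sites in 99.7 kb of coding sequence, or 0.0803 per kb, below the average of all genes of 97.6 per Mb. Of these 8, 4 were in BHLHB8-HA replicate 2 alone, 1 was of DUXBL-HA, 2 were of the co-expression list alone and 1 was shared by the latter and BHLHB8-HA replicate 2. Akap9, which encodes a scaffold of the centrosome and Golgi, had 7 sites in 10.1 kb, or 0.692 per kb. One of them, in coding exon 31 of 48, carried peaks of 4 constructs, BHLHB8-HA, HLF-HA, RHOX11-HA and the co-expression list. The uncharacterised gene 9330182L06Rik had 5 sites in 2.90 kb, or 1.73 per kb, from BHLHB8-HA, FOXA1-HA, SOX2-HA and ZFP319-HA. Akap9 and 9330182L06Rik both lie in a stretch of chromosome 5 from 3 to 11 Mb that held 33 coding-exon sites in 0.0711 Mb of coding sequence, as well as 2525 non-coding distal sites.

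Macf1, a linker of actin and microtubules, had 6 sites, of which 4 were in BHLHB8-HA replicate 2 alone. Syne2, which anchors the nucleus to the cytoskeleton, had 4, and BHLHB8-HA replicate 2 alone held them all. Myh9, the main nonmuscle myosin heavy chain of fibroblasts, differed in that 3 of its 4 sites were in BHLHB8-HA replicate 1, 2 of them in both lists, and the remaining site was of replicate 2 and DLX1-HA. Reln, which encodes the secreted guidance protein reelin, had 4 sites of 3 different constructs, BHLHB8-HA, RHOX11-HA and DUXBL-HA. Vps13b held 4, among them the CDX2-HA site printed above and a site of 1097 bp in coding exon 48 of 61 with peaks of BHLHB8-HA, DLX1-HA, DUXBL-HA and SOX2-HA, present in both lists of BHLHB8-HA and both of SOX2-HA. Tnrc6b, which acts in microRNA silencing, had 1 site shared by DLX6-HA and SOX2-HA, 1 of the co-expression list and 2 of BHLHB8-HA replicate 2. In Dnah17, an axonemal dynein, 1 of 4 sites was in both BHLHB8-HA lists, and in Pappa, a protease that frees insulin-like growth factors, 1 of 4 was shared with the co-expression list.

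Gene families were described by sites per Mb of coding sequence more than 1 kb from a start, with 97.6 as the value over all genes, or 43.5 without the sites of BHLHB8-HA replicate 2 alone. Most family counts were small, and no interval was computed for these values. Only uniquely aligned reads were kept upstream, which removes reads from near-identical family members, and the loss was not measured here. ADAMTS genes, which encode secreted metalloproteases and their relatives, had 17 sites or 208 per Mb (61.2 without those sites), with 3 each in Adamts12, Adamts16 and Adamtsl1. Keratin genes had 11 sites or 203 per Mb (18.4), including 2 in Krt40 and 1 each in Krt14 and Krt18. Every one of the 11 was in BHLHB8-HA replicate 2. Myosin heavy chain genes had 12 sites or 153 per Mb (63.8), led by Myh9, with 2 in Myh11 and 1 in Myh1. Cadherin and protocadherin genes had 35 sites or 122 per Mb (48.6), with 2 each in Cdh23, Cdhr3 and Fat4.

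Most other families lay below the value over all genes. Those close to that value, such as plexin and semaphorin genes with 9 sites, cannot be told apart from it. Values without the sites of BHLHB8-HA replicate 2 alone are again in parentheses, to be read against 43.5. Olfactory receptor genes had 10 sites or 88.5 per Mb (35.4), with 2 in Olfr95 and 1 each in Olfr1 and Olfr1358, and genes of plexins and semaphorins had 9 or 94.4 per Mb (63.0, above the value over all genes). Lysine methyltransferase and demethylase genes had 11 or 71.3 per Mb (6.48), with 2 each in Kdm5b and Kmt2d and 1 in Kdm2b, and 10 of the 11 were in BHLHB8-HA replicate 2. Solute carrier genes had 36 or 68.2 per Mb (26.5), with 3 in Slc9a4 and 2 each in Slc5a9 and Slc9a2. Axonemal dynein genes had 11 or 58.4 per Mb (26.5), with 4 in Dnah17, 3 in Dnah9 and 1 in Dnah12. Laminin and fibrillin genes had 5 or 58.1 per Mb (11.6), and collagen genes had 10 or 51.6 per Mb (25.8), among them Col10a1, Col12a1 and Col17a1 with 1 each. Vomeronasal receptor genes had 0 sites in 0.303 Mb, which allows up to 9.91 per Mb. The Hox clusters had 4 sites in only 0.0142 Mb, of which 3 were of TEAD1-HA.

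Zinc-finger genes of the C2H2 type, the largest family of transcription factors in the mouse, had 85 sites or 102 per Mb (51.4 without those of BHLHB8-HA replicate 2 alone), near the value over all genes. The construct mattered within this family. DUXBL-HA had 15 of its 128 coding-exon sites there (11.7%, interval 6.71 to 18.6), whereas 2.88% of coding bases belong to these genes. For BHLHB8-HA the share was 2.46% (51 of 2069, interval 1.84 to 3.23) and for TEAD1-HA it was 3.60% (14 of 389, interval 1.98 to 5.96). The DUXBL consensus was in 10 of the 15 sites in zinc-finger genes (66.7%) and in 52 of the other 113 (46.0%). In exons wholly more than 1 kb from a start it occurred 240 times per Mb in zinc-finger genes and 106 times per Mb in other genes. The E-box of BHLHB8 went the other way, with 655 against 976 per Mb. Zfp119a, with 2 DUXBL-HA sites in its last coding exon, and Zfhx3 and Zfhx4, with 2 sites each of which none was of DUXBL-HA, were the first 3 by symbol among the genes of the family tied at 2 sites.

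Because E-boxes in exons must fit the reading frame, their position within codons was counted in the coding-exon sites of BHLHB8-HA. CAGCTG starting at the first base of a codon encodes glutamine and leucine. It started there in 58.6% of the 1059 E-boxes (interval 55.6 to 61.6), against 53.6% of the 26931 E-boxes in coding exons wholly more than 1 kb from a start. It started at the second base in 25.1% (interval 22.5 to 27.8) against 30.7%, and at the third in 16.2% (14.1 to 18.6) against 15.7%. In the sites found in both lists the shares were 56.8%, 27.8% and 15.4% of 169 E-boxes, and the intervals held the values of all exons. In sites of replicate 2 alone they were 59.8%, 23.7% and 16.4% of 834.

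Genes that encode the expressed factors are a special case, since the transgene carries the same coding sequence as the exons of the gene, and fragments of the integrated copy cannot be told apart from fragments of the gene in these lists. Of 23 such genes 4 held coding-exon sites. Tox3 had 3, of 463, 468 and 377 bp, in its coding exons 7, 4 and 3 of 7, and all 3 carried a TOX3-HA peak, which makes 3 of the 7 coding-exon sites of that construct. They lay 77770 to 99414 bp from the nearest start, and 1 also had a peak of BHLHB8-HA replicate 2. Bhlha15, the gene of BHLHB8, had 1 site of 587 bp over its only coding exon of 591 bp, with peaks of both BHLHB8-HA lists, DLX1-HA and TEAD1-HA. Foxa1 had 1 site of 384 bp in its last coding exon, with a peak of the mutant FOXA1_SW-HA and of no other construct. Hlf had 1 site, of BHLHB8-HA replicate 2 and not of HLF-HA. Without these genes 2830 coding-exon sites remained.

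By chromosome, coding-exon sites were dense where non-coding distal sites were dense. Chromosomes 19, 15 and 11 had the most per Mb of coding sequence, 167, 159 and 143, and were also the 3 with the most non-coding distal sites per Mb, 97.4, 104 and 91.1. Chromosome 14 had the fewest of the autosomes, with 50.6 and 27.5. The X chromosome had 13 sites, or 11.8 per Mb of coding sequence, and 8.29 non-coding distal sites per Mb. Over all chromosomes the value was 96.5, counted over 29.4 Mb of all annotated coding bases, whereas the 97.6 used for gene families was counted over 29.0 Mb in representative transcripts. Without the sites of BHLHB8-HA replicate 2 alone, chromosomes 19, 15 and 11 had 73.1, 66.7 and 54.9 per Mb, and X had 6.35.

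**Figure D5:**
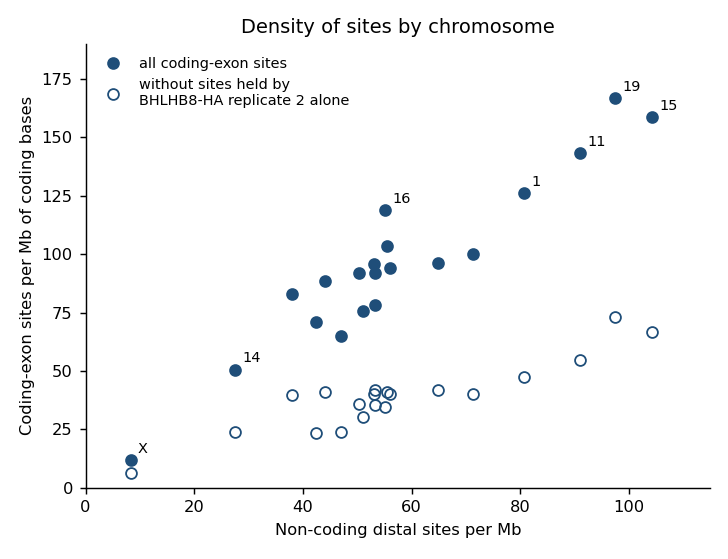
Coding-exon sites per Mb of coding sequence over 1 kb from a start against non-coding distal sites per Mb, one filled point per chromosome (1 to 19 and X; 7 are labelled). Open points leave out sites that BHLHB8-HA replicate 2 alone held. Chromosomes 19, 15 and 11 are highest on both axes and X, at 11.8 and 8.29, is lowest.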

How the data were processed

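Peak lists of 28 HA ChIP-seq samples of 24 constructs in NIH-3T3 cells were analysed. One input sample was not analysed here. Per the labels and the study's methods, the authors aligned paired-end reads to mm10 with STAR 2.5.3a, kept unique alignments, removed duplicates with Picard, called peaks per sample with MACS2 2.1.1.20160309, and dropped those overlapping peaks of the input or the ENCODE blacklist. The deposited lists give chromosome, start and end, and no score. Depth, and with it the limit of detection of each list, is therefore unknown, and a longer list can hold weaker peaks.

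Positions were read on GRCm38 with GENCODE M21, using SciPy 1.17.1, NumPy 2.4.6 and Matplotlib 3.10.9 under Python 3.11.15. The representative transcript of a gene is the one with the longest coding sequence. Sequences were sought on both strands of the central 200 bp: CAGCTG (BHLHB8), TTTATGG or TTTATTG (CDX2), TAATTA (DLX1, DLX6), ATNNAATCA (DUXBL), CCCNNGGGA (EBF1), TGATAC (SIX6), ACAATG (SOX2), CATTCC, which is GGAATG on the other strand (TEAD1), ATGCAAAT or ATGCTAAT (OCT4) and TGACTCA (AP-1). No spelling contains another. RHOX11 and ZFP319 had none listed. Reference windows were the central 200 bp of every coding exon more than 1 kb from a start.

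Constructs with at least 20 coding-exon sites entered the tests: within-construct differences, a two-sided exact permutation test over sign changes, Benjamini-Hochberg adjustment over 7 tests and a threshold of 0.05. Intervals are 95% exact (Clopper-Pearson). The upper limit for a count of 0 is 3 counts. Intervals and limits cover counting error only. Site classes, sequence counts and the test were checked on simulated data. Sites, gene lists and sequences were chosen with earlier results of these data known. The text names the 12 genes with the most sites (ties by symbol), genes of the expressed factors, the widest single-construct site with the consensus per construct (7 of 11 are printed), and the first 3 genes of each listed family with at least 10 sites. The remark on the Hox clusters was chosen after its values were seen. Alternatives were other limits on constructs, distance, width and overlap, leaving out each replicate, other windows and minimums, and 3 added after the data were seen: leaving out the lists that stood apart, weighting coding-exon windows by length, and leaving out the dense stretch of chromosome 5.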

Additional observations from a re-analysis of the deposited data

How the results depend on the processing

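Of 208 values recomputed under 23 alternatives for 10 results, 158 were unchanged. Unchanged means the same sign and side of the threshold for a tested difference, within 1.5 times for the number of genes, and within the interval of the reported value for a share. The tests are paired within constructs, since each takes the difference between a construct's coding-exon sites and a reference. Between lists, no paired analysis was possible because the replicate numbers name duplicate lists of the same construct. No test compares groups of lists that share numbers. Where a value changed, the cause was not tested, beyond the fewer constructs that some settings leave (6 with sites of 1 construct, 7 with at least 50 coding-exon sites).

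The coding share of 1.99% became 2.17% for sites of 1 construct, 1.83% beyond 2 kb from a start, 1.77% beyond 1 kb from every transcript start, 1.56% with mostly coding sites (at least 50% of the bases), 2.37% with peaks of at least 300 bp and 0.765% without the 3 lists that stood apart. Leaving out 1 replicate gave 1.13% to 2.06%, the lowest without BHLHB8-HA replicate 2. The 2454 genes became 2164 beyond 2 kb from a start, 2086 beyond 1 kb from every transcript start and 1963 with mostly coding sites, all within that limit, and 1561 with peaks of at least 300 bp, 744 without the 3 lists and 1206 to 2457 without 1 replicate, the lowest again without BHLHB8-HA replicate 2.

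For own consensus against non-coding distal sites, the mean difference in percentage points changed sign to -0.034 with peaks within 100 bp joined, -1.36 with at least 10 and -0.28 with at least 50 coding-exon sites, and -2.76 without the 3 lists, and ran from -1.47 to 0.66 without 1 replicate. Against coding-exon windows it stayed positive but missed 0.05 at 22.7 for sites of 1 construct, 20.2 with mostly coding sites, 15.9 with peaks of at least 300 bp, 17.1 without the genes of the expressed factors, 16.5 with at least 50 sites and 17.2 without the stretch of chromosome 5. Without 1 replicate it was 16.1 to 17.2.

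For AP-1 against non-coding distal sites the difference was 0.46 for sites of 1 construct, and it passed 0.05 at -5.40 for sites of 1 to 9 constructs, -3.75 beyond 1 kb from every transcript start and -5.63 with mostly coding sites. Against coding-exon windows it missed 0.05 at 6.14 for sites of 1 construct, 3.91 with mostly coding sites, 12.2 with peaks of at least 300 bp and 6.54 with at least 50 sites. The width difference was -4.72 bp with mostly coding sites and -0.50 bp without the 3 lists. The excess in last coding exons missed 0.05 at 7.17 for sites of 1 construct, 13.1 with peaks of at least 300 bp, 8.36 without the genes of the expressed factors, 6.89 with at least 10 and 9.19 with at least 50 sites, and 7.81 without the stretch of chromosome 5, with 8.01 to 8.79 without 1 replicate. For BHLHB8-HA, the share found in both lists differed by -7.97 points between coding-exon and non-coding distal sites, by -4.03 for sites of 1 construct, -10.7 for 1 to 9 constructs, -12.6 with mostly coding sites and -15.7 with peaks of at least 300 bp.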
